A study of Mus musculus with 24 samples.

Results

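The genes described here encode the adaptor BTG4, subunits of the CCR4-NOT complex and associated factors that shorten the poly(A) tails of maternal mRNAs. They were chosen by name, and all 10 (Btg4, Cnot1, Cnot2, Cnot3, Cnot6, Cnot6l, Cnot7, Cnot8, Zfp36l2 and Pan3) were found among the 55471 annotated mouse genes. RNA and its N6-methyladenosine (m6A) were measured by SLIM-seq, a low-input m6A immunoprecipitation (IP), in MII oocytes, late 1-cell (L1C) embryos and late 2-cell (L2C) embryos of wild-type B6D2F1 mice, with 3 IP and 3 input libraries per stage. Inputs came from the same batches of RNA without IP and serve as the RNA-seq of their stage. A second experiment compared L2C embryos that received Cas13d mRNA plus crRNAs to Ythdc1 at the zygote stage (KD, 3 libraries) with embryos given Cas13d mRNA alone (NC, 3 libraries). Ythdc1 encodes a nuclear m6A reader. All embryos were of the same cross, from superovulated 8-week-old females, no allele was altered in any group, and every library is a pool. The labels do not say whether replicates were separate collections, so p-values measure the spread between these libraries, which may be technical.

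Maternal mRNAs are made during oocyte growth and are largely removed between ovulation and the 2-cell stage, a period called the maternal-to-zygotic transition. Removal begins with the poly(A) tail: BTG4 brings CCR4-NOT to translating maternal mRNAs, CNOT1 is the scaffold on which the complex assembles, and 2 pairs of paralogous nucleases (CNOT6 or CNOT6L of the CCR4 type, CNOT7 or CNOT8 of the CAF1 type) cut the tail. ZFP36L2 binds AU-rich elements and recruits the complex, and PAN3 is the RNA-binding partner of a separate deadenylase, PAN2. Several of these factors are themselves encoded by mRNAs stored in the oocyte, whose translation can be switched on by the cytoplasmic polyadenylation element (CPE) near the 3' end.

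CPE letters were searched in the last 100 bases of 1 reference transcript per gene on the sense strand, as TTTTAT or TTTTAAT, because such elements are known to mark stored mRNAs. Of the 9 genes whose transcript has an annotated 3' end, 5 held one, against 17.9% of 19304 transcripts searched in the same way. These sites, each in the 3' UTR on GRCm38, are shown with the motif in capitals.
Btg4, chr9:51119797-51119826 (+): agataaatccctTTTTATgtctttttaaaa
Cnot1, chr8:95719504-95719533 (-): aagatgtattgaTTTTATatatgtgagtac
Cnot3, chr7:3661079-3661108 (+): atgaataaatagTTTTATatgacggctggc
Cnot7, chr8:40493038-40493067 (-): tcttaaggtacaTTTTATatcaataaaaat
Pan3, chr5:147548459-147548488 (+): tatagcagtattTTTTAATaaagaattgca
The distance from the first base of the motif to the annotated end differed, from 18 bases in Cnot3 and 19 in Cnot7 to 66 in Btg4. Cnot2, Cnot6, Cnot6l and Zfp36l2 had no such letters in this window, and Cnot8 was not scored because its annotated transcript has no defined 3' end.

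The letters GGACT, a common form of the m6A consensus, were searched within 200 bases on each side of the stop codon, where m6A is often found. Only Cnot8 and Zfp36l2, 2 of the 10 genes, held a match, against 38.84% of 17150 transcripts. The match nearest to the stop codon is shown for each on GRCm38, with the motif in capitals.
Cnot8, chr11:58117523-58117543 (+), coding sequence: gaggatgtGGACTgtgcccag
Zfp36l2, chr17:84185641-84185661 (-), 3' UTR: gagcacttGGACTcgaactct
A match is a description of letters and not of a modified site.

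The genes lie on 7 autosomes, and their spans differ widely, from 4017 bases for Zfp36l2 to 118342 for Pan3. SLIM-seq counts were made over whole gene spans, introns included, whereas counts in the KD experiment were made over exons. Total counts were between 11107421 and 39739950 per SLIM-seq library and between 8696476 and 14500548 in the 5 KD and NC libraries that cover the whole annotation. Levels are counts-per-million (CPM) of the total of each library, and log2 changes were computed by edgeR after TMM scaling. Relative to scaling on totals alone, TMM lowered the median log2 IP/input of all genes by 0.20 in MII, 0.30 in L1C and 0.25 in L2C libraries, and lowered the median input change from MII to L2C by 0.14. Summed levels of 5 oocyte transcripts (Zp3, Gdf9, Bmp15, Mos, Oosp1) fell from 6365 to 7253 CPM in MII inputs to 3393 to 3664 in L1C and 560.3 to 592 in L2C, while 5 transcripts of 2-cell embryos rose from 6.00 to 6.78 CPM to 56.8 to 85.4 and then to 291 to 422. Of 7 cumulus cell markers, Ptx3 held at most 3 counts in every input, and the sum was 19.2 to 20.3 CPM at MII, 8.28 to 8.91 in L1C and 264 to 279 in L2C inputs. Amhr2 made up 262 to 277 CPM of that L2C sum, and its part in any result was not tested.

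Compared per kb of exon, Btg4 had the highest level of the 10 genes in oocytes. It stood at 748 ± 22.2 CPM per kb in MII inputs (mean ± SD, n = 3 here and below), followed by the CAF1-type nucleases Cnot7 at 145 ± 15.1 and Cnot8 at 114 ± 15.7, whose ranges overlapped. Cnot3, a subunit of the NOT module, had 76.3 ± 8.95 CPM per kb, and Cnot2, its partner in that module, 24.0 ± 0.656. The CCR4-type nuclease Cnot6l had 3.82 ± 0.151, Cnot1 2.39 ± 0.0952, Pan3 1.23 ± 0.0595 and Cnot6 1.08 ± 0.205, of which Pan3 and Cnot6 overlapped. Zfp36l2 was lowest at 0.152 ± 0.0923 CPM per kb. At L1C Btg4 (588 ± 27.0) and Cnot7 (192 ± 47.8) were still the highest, and the ranges of Cnot8 and Cnot3, and of Cnot3 and Cnot2, overlapped. At L2C Cnot8 was first with 189 ± 18.3 CPM per kb, ahead of Btg4 with 129 ± 9.09 and Cnot7 with 48.0 ± 11.2, without overlap. Cnot1 and Cnot2, both at 14.4 CPM per kb, overlapped at L2C. The deposited TPM, which divide by the whole gene span, placed Cnot7 (303 ± 28.8 TPM), Cnot3 (288 ± 28.0) and Btg4 (268 ± 2.40) first at MII with overlapping ranges between neighbours, so the lead of Btg4 in oocytes does not hold per length of the whole gene span. At L1C they placed Cnot7 (315 ± 77.7) above Btg4 (167 ± 4.94) without overlap, and Btg4 overlapped Cnot3 (157 ± 36.4). At L2C they also placed Cnot8 first (158 ± 12.5), but Btg4 (25.3 ± 2.25) lay below Cnot7 (54.6 ± 13.7) and Cnot3 (42.5 ± 2.14).

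**Figure D1:**
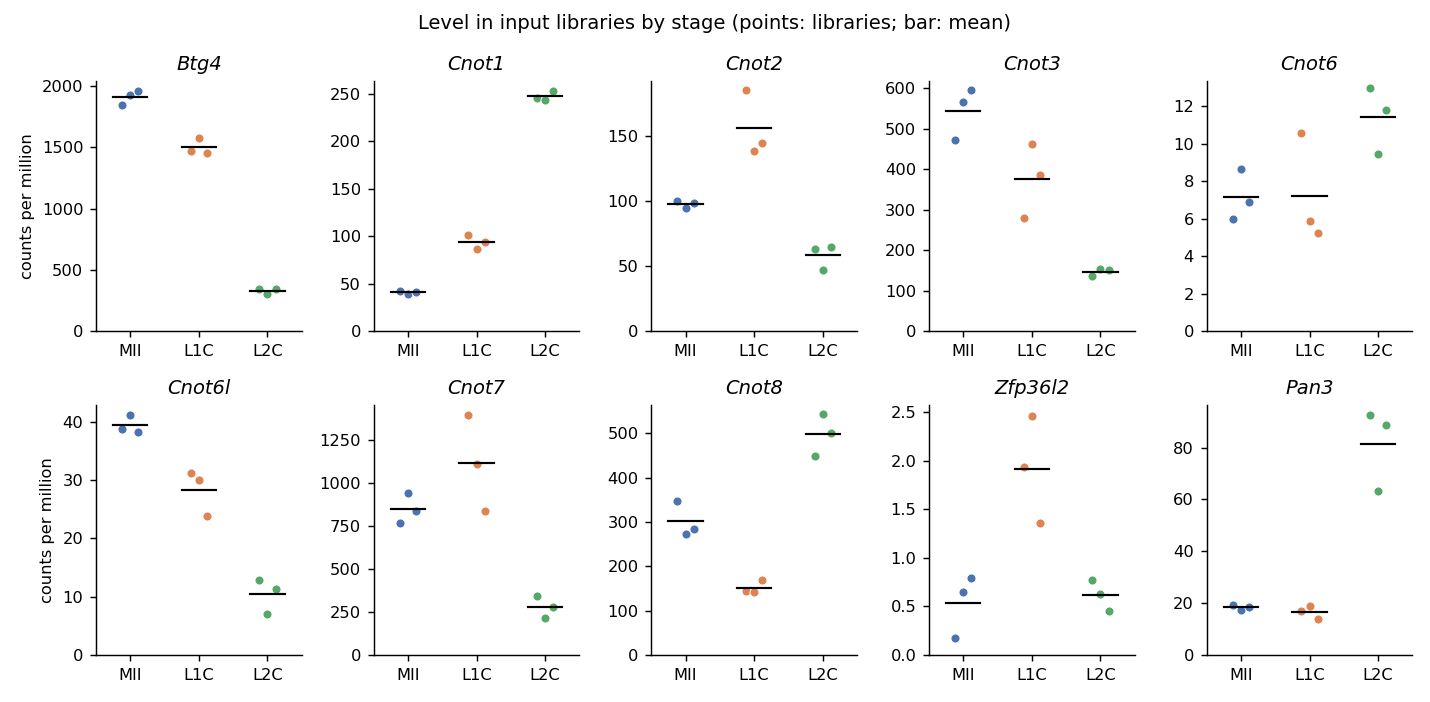
Level of each gene (CPM, linear axes from 0) in the 3 input libraries of MII oocytes, L1C and L2C embryos, with a bar at the mean. Btg4, Cnot3 and Cnot6l are lowest at L2C, Cnot1 and Pan3 are highest there, and Cnot8 is lowest at L1C.

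The transition moved these genes in different directions. From MII to L1C, 3 of the 10 rose and 4 fell at an adjusted p under 0.05, against 31.9% and 24.3% of the 19903 genes tested (56.3% in either direction). Between L1C and L2C, 3 rose and 6 fell, against 44.1% and 38.8% (82.9%), and over the whole interval from MII to L2C 3 rose and 5 fell, against 47.5% and 37.1% (84.6%). The median log2 change of the 10 genes from L1C to L2C was -1.48, and that of all genes tested was 0.17. Each library is a share of its own total, so less RNA of a gene per embryo and more RNA of others cannot be told apart, nor can fewer cells of a type and less RNA per cell.

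Btg4, the adaptor, fell at each step. Its level was 1849, 1927 and 1959 CPM in MII inputs, 1468, 1581 and 1457 in L1C inputs and 344, 303 and 343 in L2C inputs, and no library of a stage reached into the range of another. The log2 change was -0.40 ± 0.11 (SE) from MII to L1C (adjusted p = 0.00524) and -2.28 ± 0.11 from L1C to L2C (adjusted p = 1.3e-10). Over both steps Btg4 was 6.40-fold lower.

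The scaffold Cnot1 moved the opposite way. It had 42.4, 39.2 and 41.4 CPM at MII, 101, 86.6 and 93.8 at L1C, then 246, 244 and 253 at L2C, so every later library was above every earlier one. The log2 change was 1.15 ± 0.11 from MII to L1C (adjusted p = 1.63e-06) and 1.30 ± 0.11 from L1C to L2C (adjusted p = 6.85e-08). The antisense gene 4930513N10Rik, which overlaps the span of Cnot1, had 4.90 CPM at MII and 13.3 at L2C.

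The NOT module genes differed from the scaffold and from each other. Cnot2 had 100.3, 95.1 and 98.6 CPM at MII, 186, 139 and 145 at L1C, then 63.3, 47.3 and 65.2 at L2C, which is highest at L1C. It rose by 0.62 ± 0.15 on the log2 scale (adjusted p = 0.00278) and then changed by -1.51 ± 0.15 (adjusted p = 3.46e-07). The gene 5330438D12Rik, which overlaps Cnot2, had 11.3 CPM at MII, 10.2 at L1C and 10.4 at L2C. Cnot3 was lower at each stage, with 472, 566 and 594 CPM, then 279.9, 462 and 385, then 137, 153 and 152. Its log2 changes were -0.59 ± 0.16 (adjusted p = 0.00648) and -1.44 ± 0.16 (adjusted p = 1.24e-06). Leng1, which overlaps Cnot3, rose from 1.68 CPM at MII to 144 at L2C, and how reads were divided between these genes was not tested.

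Of the CAF1-type paralogs, Cnot7 had more counts than Cnot8 in MII inputs and fewer in L2C inputs. Cnot7 had 765, 939 and 835 CPM at MII, 1396, 1111 and 839 at L1C, then 345, 215 and 278 at L2C. The L1C and MII libraries of Cnot7 overlapped (log2 change 0.35 ± 0.19, adjusted p = 0.127), although without L1C input replicate 3 the change was 0.50 and passed the test (adjusted p = 0.0342). Over all fits that left out 1 library, this change ranged from 0.15 to 0.50 and its adjusted p from 0.0342 to 0.495. From L1C to L2C Cnot7 changed by -2.09 ± 0.19 (adjusted p = 1.31e-07). Vps37a, which overlaps Cnot7, had 48.6 CPM at MII, 69.7 at L1C and 47.1 at L2C. Cnot8 had 349, 272 and 284 CPM at MII, 145, 142 and 168 at L1C, then 448, 545 and 501 at L2C. It thus fell by 1.04 ± 0.14 on the log2 scale to L1C (adjusted p = 2.12e-05) and rose by 1.62 ± 0.14 to L2C (adjusted p = 5.49e-08).

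The CCR4-type paralogs were low in these libraries. Cnot6l had 38.8, 41.2 and 38.3 CPM at MII, 31.2, 29.9 and 23.8 at L1C, then 12.9, 7.07 and 11.3 at L2C. The stages of Cnot6l did not overlap, and it fell by 1.53 ± 0.19 on the log2 scale from L1C to L2C (adjusted p = 4.2e-06). The step from MII to L1C was -0.53 ± 0.19 (adjusted p = 0.0266) and did not pass without MII input replicate 1 (-0.55, adjusted p = 0.0516), MII input replicate 2 (-0.50, adjusted p = 0.0766) or L1C input replicate 3 (-0.435, adjusted p = 0.0966). Cnot6 had 5.99, 8.64 and 6.87 CPM at MII, 10.6, 5.85 and 5.23 at L1C, then 12.9, 9.47 and 11.8 at L2C. None of its changes passed the test, and the change of Cnot6 from L1C to L2C was 0.56 ± 0.26 (adjusted p = 0.0541). That change passed under DESeq2 (0.70, adjusted p = 0.0203), library totals (0.66, adjusted p = 0.029) and no filter (0.55, adjusted p = 0.0265). The change of Cnot6 from MII to L2C (0.53, adjusted p = 0.0685) passed under DESeq2 (0.61, adjusted p = 0.043), library totals (0.67, adjusted p = 0.0259) and in the libraries compared alone (0.47, adjusted p = 0.0349). Without L1C input replicate 1 the change from L1C to L2C was 0.93 (adjusted p = 0.00164) and without L2C input replicate 2 it was 0.67 (adjusted p = 0.0385), while the change from MII to L2C passed without MII input replicate 2 (0.68, adjusted p = 0.0468) or L2C input replicate 2 (0.63, adjusted p = 0.0494). Other omissions lowered both changes, to as little as 0.37 from L1C to L2C and 0.39 from MII to L2C. The highest adjusted p were 0.208 and 0.218.

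Among the factors outside the core complex, Pan3 rose late and Zfp36l2 was near the limit of counting. Pan3 had 19.1, 17.4 and 18.5 CPM at MII, 17.0, 18.8 and 14.0 at L1C, then 92.7, 63.2 and 88.7 at L2C. The first 2 stages of Pan3 overlapped, and Pan3 then rose 4.60-fold to L2C (adjusted p = 1.43e-08). Zfp36l2 had 0.169, 0.648 and 0.792 CPM at MII, 1.93, 2.46 and 1.36 at L1C, then 0.770, 0.630 and 0.455 at L2C, from 4.12 to 52.7 counts per library. The L1C libraries of Zfp36l2 were above all others, with log2 changes of 1.79 ± 0.48 (adjusted p = 0.00567) and -1.74 ± 0.46 (adjusted p = 0.00286). The antisense gene AC132455.1 at the same locus had 7.40 CPM at MII, 7.63 at L1C and 1.13 at L2C, which is more than Zfp36l2 itself.

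The ratio of paralogs within a library does not depend on how libraries are scaled. Counts of Cnot7 over Cnot8 were 2.19, 3.46 and 2.94 in MII inputs, 9.66, 7.85 and 4.99 in L1C inputs and 0.770, 0.394 and 0.555 in L2C inputs, and the 3 stages did not overlap. Per exon length these ratios were 0.994 to 1.56, 2.26 to 4.37 and 0.178 to 0.349. In exon counts of NC embryos, also at L2C, Cnot7 had 1.71 to 2.05 times the counts of Cnot8, above 1 unlike in the L2C inputs, and the ratio per exon length was 0.775 to 0.928. Cnot6l over Cnot6 had a ratio per exon length of 3.06 to 4.15 at MII, 1.89 to 3.28 at L1C and 0.478 to 0.638 at L2C, and 0.657 to 0.686 in NC embryos. In both pairs, then, the member that was the larger per exon length in L1C inputs was the smaller in L2C inputs. In NC and KD libraries this held only after division by exon length, since Cnot7 and Cnot6l had more counts than their paralogs in all of them.

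**Figure D2:**
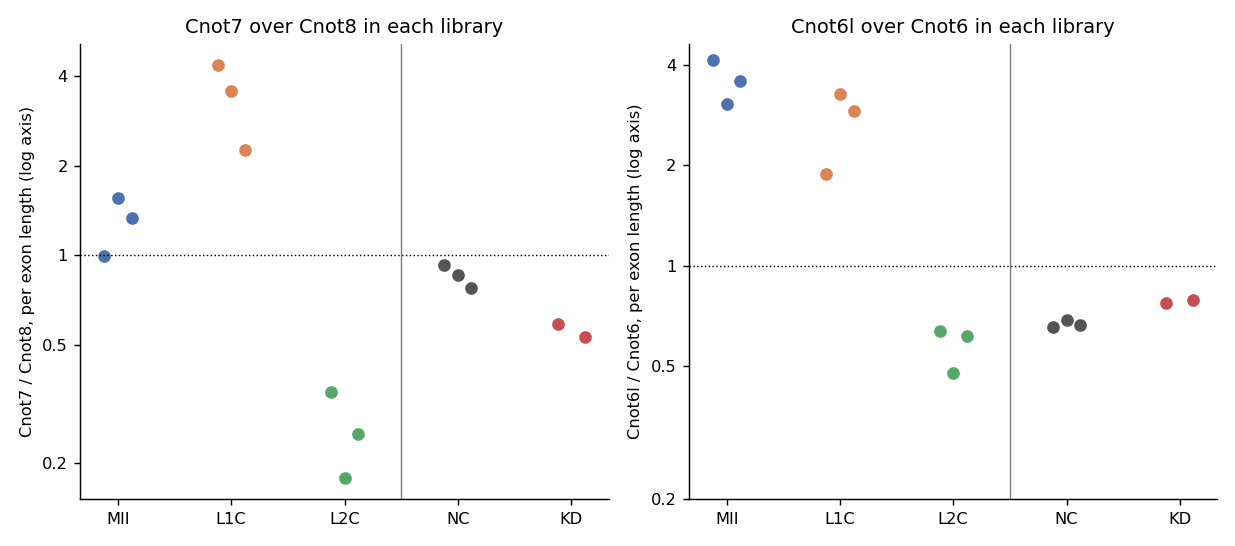
Ratio of Cnot7 to Cnot8 and of Cnot6l to Cnot6 per exon length in each input, NC and KD library (log axis, dotted line at 1). The vertical line separates gene-span counts of SLIM-seq inputs from exon counts of the KD experiment, and every L1C input lies above 1 and every L2C input, NC and KD library below 1.

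The IP compares RNA bound by the m6A antibody with its input, and each value is relative to the other genes of the library. Both were counted over whole gene spans, so IP/input is no direct measure of which mRNAs carried m6A. Cnot6l and Pan3 were enriched at all 3 stages. Btg4 was called higher and Cnot8 lower at all 3 as well. The MII call of Btg4 and the L2C call of Cnot8 were lost under alternative settings, as given below. At MII 3 of the 10 genes were higher in IP and 3 lower, against 17.7% and 21% of the 21950 genes tested (38.6% in either direction). At L1C the counts were 4 and 3, against 15.8% and 18.2% (33.9%), and at L2C 6 and 3, against 22% and 22% (44%). Under a looser rule, which calls an RNA m6A-tagged at a log2 IP/input above 0, an unadjusted p under 0.05 and more than 1 count in each input, 4 genes were tagged at MII (19.5% of all genes tested), 4 at L1C (18.9%) and 6 at L2C (24.3%).

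Cnot6l had the highest IP/input of the 10 at each stage. It rose from 38.8, 41.2 and 38.3 CPM in MII inputs to 139, 117 and 175 in MII IPs, from 31.2, 29.9 and 23.8 to 147, 162 and 142 at L1C, and from 12.9, 7.07 and 11.3 to 57.8, 59.7 and 64.8 at L2C. All IP libraries of a stage were above its inputs, and log2 IP/input of Cnot6l, stage by stage, was 1.63 ± 0.17, 2.11 ± 0.18 and 2.28 ± 0.18 (adjusted p = 4.04e-07, 4e-08 and 1.93e-08). Its paralog Cnot6 had 0.63 ± 0.25 at MII (adjusted p = 0.0509), 0.87 ± 0.24 at L1C (adjusted p = 0.00927) and 1.31 ± 0.24 at L2C (adjusted p = 0.00022). Cnot6 passed at MII under DESeq2 (0.69, adjusted p = 0.0217), library totals (0.87, adjusted p = 0.00816), no filter (0.63, adjusted p = 0.0169) and in the MII libraries alone (0.68, adjusted p = 0.028). The Cnot6 call at MII was also made without MII input replicate 2 (0.78, adjusted p = 0.0384) or MII IP replicate 2 (0.83, adjusted p = 0.0143), and the call at L1C was lost without L1C input replicate 2 (0.72, adjusted p = 0.0538) or 3 (0.68, adjusted p = 0.0596).

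Pan3 had 46.1, 39.5 and 51.8 CPM in MII IPs, 68.2, 68.7 and 63.7 in L1C IPs and 211, 171 and 199 in L2C IPs, each above the inputs of its stage. Pan3 had a log2 IP/input of 1.08 ± 0.15 in oocytes, 1.71 ± 0.15 in L1C and 0.99 ± 0.15 in L2C embryos (adjusted p = 1.2e-05, 9.2e-08 and 2.52e-05). For Btg4 the enrichment was smaller: IP libraries had 2686, 2644 and 2882 CPM at MII, 3099.8, 2811 and 3017 at L1C, then 537, 679 and 591 at L2C. Log2 IP/input of Btg4 was 0.69 ± 0.099 at L1C (adjusted p = 2.47e-05) and 0.61 ± 0.099 at L2C (adjusted p = 7.11e-05). At MII it was 0.28 ± 0.099 (adjusted p = 0.03). This call was lost without the filter (0.28, adjusted p = 0.16) and with the replicate number as a block (0.28, adjusted p = 0.102). It was also lost when any 1 of the 6 MII libraries was left out, with values of 0.26 to 0.30 and adjusted p of 0.0521 to 0.0881.

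Cnot8 was on the other side, and so was Cnot3 at L1C and L2C. Cnot8 fell from 349, 272 and 284 CPM in MII inputs to 131, 159 and 118 in IPs, and its log2 IP/input was -1.38 ± 0.13 in oocytes, -1.10 ± 0.13 in L1C and -0.47 ± 0.13 in L2C embryos (adjusted p = 1.09e-07, 3.37e-06 and 0.00751). The value at L2C was -0.21 and did not pass with library totals as the scaling (adjusted p = 0.161). Cnot7, the paralog of Cnot8, had -0.69 ± 0.19 at MII (adjusted p = 0.00663; -0.45, adjusted p = 0.0649, on library totals), -0.33 ± 0.19 in L1C and 0.19 ± 0.19 in L2C embryos, of which only the first passed. Cnot3 IPs had 461, 354 and 530.3 CPM at MII, 182, 157 and 328 at L1C, then 55.6, 63.4 and 43.1 at L2C. Log2 IP/input of Cnot3 was -0.52 ± 0.23 at MII (adjusted p = 0.0814), -1.05 ± 0.23 at L1C (adjusted p = 0.00144) and -1.71 ± 0.24 at L2C (adjusted p = 1.23e-05). At MII Cnot3 passed without the filter (-0.52, adjusted p = 0.00285) and in the MII libraries alone (-0.46, adjusted p = 0.0209).

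Enrichment of Cnot1 and Cnot2 moved with stage in opposite directions. Cnot1 IPs had 60.9, 56.5 and 50.6 CPM at MII, all above the inputs, and 131, 142 and 151 at L2C, all below them. Log2 IP/input of Cnot1 was 0.21 ± 0.11 at MII (adjusted p = 0.135), -0.49 ± 0.11 at L1C (adjusted p = 0.00147) and -1.06 ± 0.11 at L2C (adjusted p = 3.61e-07). The MII value of Cnot1 passed under DESeq2 (0.28, adjusted p = 0.039) and in the MII libraries alone (0.26, adjusted p = 0.0497). On library totals the MII value was 0.45 and passed (adjusted p = 0.00234), and the L1C value was -0.19 and did not (adjusted p = 0.164). Cnot2 was lower in IP at MII (-0.57 ± 0.14, adjusted p = 0.00277), near 0 at L1C (-0.07 ± 0.14, adjusted p = 0.738) and higher at L2C (0.48 ± 0.14, adjusted p = 0.00898). On library totals Cnot2 had -0.34 at MII (adjusted p = 0.0607) and 0.23 at L1C (adjusted p = 0.185), and the call at L2C was lost without L2C input replicate 2 (0.33, adjusted p = 0.0662). The L1C value of Cnot2 was 0.08 without L1C input replicate 1. Zfp36l2 passed only at L2C (1.56 ± 0.49, adjusted p = 0.0155), where IPs held 2.43, 2.49 and 1.55 CPM, and that call was lost without L2C input replicate 3 (1.345, adjusted p = 0.0733) or L2C IP replicate 1 (1.42, adjusted p = 0.0534).

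**Figure D3:**
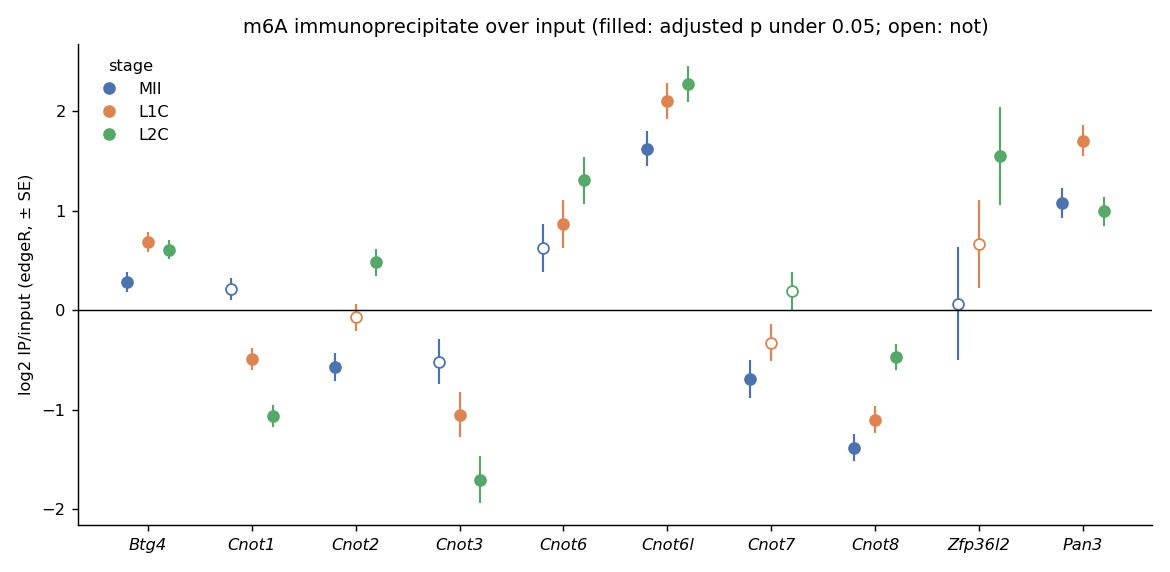
Log2 IP/input of each gene at MII, L1C and L2C with its standard error (3 IP and 3 input libraries per stage, line at 0). Cnot6l reaches 2.28 at L2C, Cnot8 stays below 0 at each stage, and Cnot1 and Cnot3 lie lower at each later stage.

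Differences of IP/input between stages were tested as an interaction. From MII to L1C only Cnot1 passed, with a difference of -0.71 ± 0.15 (adjusted p = 0.0066), against 3.11% of genes called higher and 4.21% lower, or 7.32% in all. DESeq2 also called Btg4 (0.38, adjusted p = 0.0438) and Pan3 (0.60, adjusted p = 0.0396). Without L1C IP replicate 3 Cnot3 passed as well (-0.94, adjusted p = 0.0342), as did Cnot2 without L1C input replicate 1 (0.65, adjusted p = 0.0399). From L1C to L2C 1 gene rose and 2 fell, against 5% and 4.47% of genes (9.48%): Cnot1 (-0.57 ± 0.15, adjusted p = 0.0243), Cnot8 (0.63 ± 0.19, adjusted p = 0.0391) and Pan3 (-0.71 ± 0.21, adjusted p = 0.039). Without the filter Cnot1 (-0.61, adjusted p = 0.059) and Cnot8 (0.59, adjusted p = 0.0589) did not pass and Cnot3 did (-0.70, adjusted p = 0.0187), and in the libraries compared alone Cnot8 did not pass (0.45, adjusted p = 0.0906). Leaving out single libraries ended each of these calls at least once: that of Cnot1 in 4 of 12 cases (L1C input replicate 2, L2C input replicate 3, L1C IP replicate 1 and L2C IP replicate 1, values -0.54 to -0.49), and those of Cnot8 and Pan3 in 9 of 12 cases each. The 9 included all L1C IPs, L1C input replicates 1 and 3, L2C input replicates 1 and 3 and L2C IP replicate 3 for both genes, with L2C IP replicate 1 for Cnot8 and L2C IP replicate 2 for Pan3 (values 0.54 to 0.66 for Cnot8 and -0.75 to -0.61 for Pan3).

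From MII to L2C 3 of the 10 genes rose in IP/input and 2 fell, against 11.1% and 9.22% of genes (20.3%). Log2 IP/input fell for Cnot1 (-1.28 ± 0.15, adjusted p = 1.01e-05) and Cnot3 (-1.19 ± 0.32, adjusted p = 0.0134), of which Cnot3 was below 0 at each stage. It rose for Cnot2 (1.05 ± 0.20, adjusted p = 0.000791), Cnot8 (0.92 ± 0.19, adjusted p = 0.00158) and Cnot7 (0.89 ± 0.27, adjusted p = 0.0239). Cnot8 thus became less depleted but stayed below 0, and Cnot7 went from depleted at MII to not called at L2C. The call of Cnot7 was lost in 5 of 12 cases, without MII input replicate 2 (0.80), L2C input replicate 2 (0.71), MII IP replicate 1 (0.86), MII IP replicate 2 (0.73) or L2C IP replicate 3 (0.86). Cnot6l had a difference of 0.65 ± 0.24 (adjusted p = 0.0666) and passed without L2C input replicate 1 (0.80, adjusted p = 0.0331) or MII IP replicate 3 (0.79, adjusted p = 0.0327). For Btg4 the difference was 0.33 with a 95% interval of 0.05 to 0.60 (adjusted p = 0.109), and for Pan3 it was -0.09 with an interval of -0.50 to 0.32 (adjusted p = 0.859).

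The knockdown asks how these genes respond at L2C when Ythdc1 mRNA is targeted. Ythdc1 itself had 194 and 202 CPM in the KD libraries that cover the whole annotation and 419.9, 427 and 395 in NC libraries (log2 change -0.99 ± 0.08, adjusted p = 5.21e-08). The file of KD replicate 3 ends on chromosome 7. Of the 10 genes only Cnot3, Cnot6l and Pan3 were therefore measured in 6 libraries, and the other genes in 2 KD and 3 NC libraries. Ythdc1 was measured in all 6 as well. In CPM of the total over the genes these 6 share, it had 498, 521 and 493 in KD and 1114, 1138 and 1048 in NC. In the fit on the whole annotation 2 of the 10 genes rose and 5 fell, against 30.5% and 36.4% of 17074 genes tested, or 66.8% in either direction. In the fit on 6 libraries 0 of the 3 genes rose and 3 fell, against 33.5% and 37.4% of 7433 genes (70.9%). When a log2 change over 1 in size and an unadjusted p under 0.05 were required of the edgeR fit, 0 of the 10 genes were called, against 14.4% of genes called higher and 24.5% lower, and 0 of the 3 in 6 libraries, against 14.7% and 22.5%. Btg4 lay at this limit: its log2 change was -0.97 as fitted and -0.94 by DESeq2, but -1.05 on library totals and -1.02 without KD replicate 1, which would make the count 1. At an unadjusted p under 0.05 alone, 8 of the 10 were called, against 69.7% of all genes tested. Summed oocyte transcripts were 627 to 672 CPM in KD and 1418 to 1514 in NC, and summed 2-cell transcripts 293 to 321 in KD and 1005 to 1097 in NC, and their part in the results below was not tested.

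Btg4 changed the most of the 10. It had 457 and 429 CPM in KD and 875, 933 and 940.0 in NC, without overlap, a 1.96-fold lower level (log2 change -0.97 ± 0.07, adjusted p = 2.33e-08). Pan3 had 1365 and 1246 CPM in KD and 2306, 2369 and 2109.8 in NC. In the fit on 6 libraries Pan3 fell by 0.74 ± 0.06 on the log2 scale (adjusted p = 6.17e-09), and the 3 KD libraries, at 3497, 3208 and 3241 CPM of the total of that table, were all below the NC libraries at 6121, 6319 and 5599.5.

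The nucleases fell, apart from Cnot8. Cnot7 had 265 and 241 CPM in KD and 424, 401 and 353 in NC (log2 change -0.56 ± 0.09, adjusted p = 7.33e-05). Cnot6 had 94.5 and 87.1 against 143, 144 and 130.1 (log2 change -0.54 ± 0.09, adjusted p = 0.000117). Cnot6l changed by -0.35 ± 0.07 in 6 libraries (adjusted p = 0.000337), with 114 and 107 CPM in the KD libraries that cover the whole annotation against 147, 154 and 135. In the fit on the whole annotation Cnot6l had -0.32 ± 0.09 (adjusted p = 0.00681), which did not pass without KD replicate 2 (-0.25, adjusted p = 0.0889). Cnot8 had 203 and 205 CPM in KD and 207, 212 and 207 in NC, and its log2 change of 0.04 had a 95% interval of -0.11 to 0.20 (adjusted p = 0.634). The ratio of Cnot7 to Cnot8 per exon length was 0.589 and 0.533 in KD, below the 0.775 to 0.928 of NC libraries.

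The scaffold and Cnot2 rose slightly. Cnot1 had 252 and 247 CPM in KD and 235, 215 and 225 in NC (log2 change 0.22 ± 0.08, adjusted p = 0.0197). That call was lost without KD replicate 1 (0.21, adjusted p = 0.119) or NC replicate 2 (0.19, adjusted p = 0.107), and on library totals (0.15, adjusted p = 0.0918). Cnot2 had 117 and 105 CPM in KD and 88.0, 94.5 and 96.0 in NC (log2 change 0.34 ± 0.09, adjusted p = 0.0039), and did not pass without KD replicate 1 (0.26, adjusted p = 0.0805). Cnot3 fell by 0.38 ± 0.12 in 6 libraries (adjusted p = 0.0105), where the highest KD library (132 CPM of that table) lay just below the lowest NC library, also at 132. It lost that call without KD replicate 1 (-0.29, adjusted p = 0.0658), KD replicate 3 (-0.32, adjusted p = 0.0586) or NC replicate 3 (-0.24, adjusted p = 0.0531). In the fit on the whole annotation Cnot3 had -0.32 ± 0.14 (adjusted p = 0.0601). It passed on library totals (-0.40, adjusted p = 0.032) and without the filter (-0.34, adjusted p = 0.00864), which makes 6 genes lower instead of 5. Cnot3 also passed without KD replicate 2 (-0.54, adjusted p = 0.00693) or NC replicate 1 (-0.42, adjusted p = 0.0192). Over the 5 fits that left out 1 library, its log2 change ranged from -0.54 to -0.11 and its adjusted p from 0.00693 to 0.584. Zfp36l2 had 4.62 and 3.13 CPM in KD and 4.62, 3.10 and 5.98 in NC, and its log2 change of -0.13 ± 0.31 did not pass (adjusted p = 0.737).

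**Figure D4:**
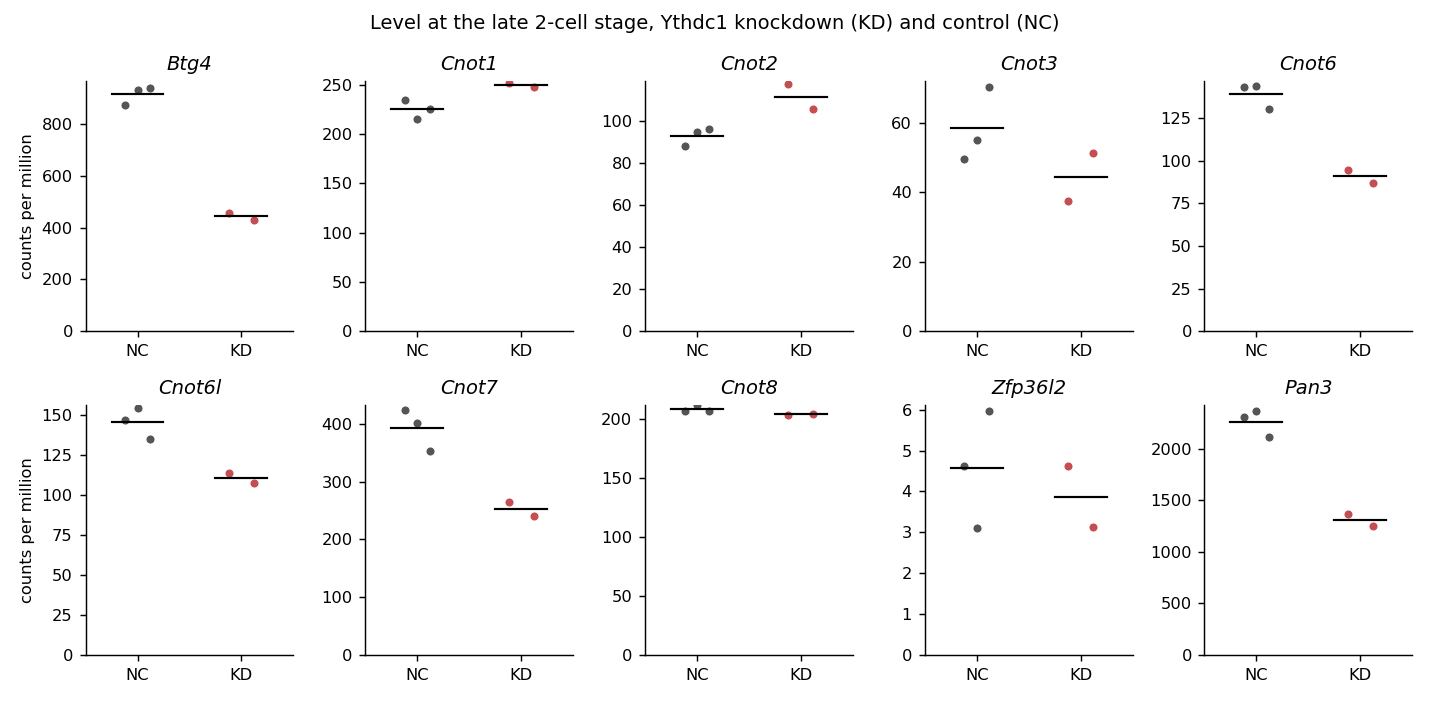
Level of each gene (CPM of exon counts, linear axes from 0) in 3 NC and 2 KD libraries that cover the whole annotation, with a bar at the mean. Btg4 and Pan3 separate most clearly, with KD below NC, and Cnot8 lies between 203 and 212 in all 5 libraries.

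L2C inputs and NC libraries are both of the L2C stage but were counted over gene spans and exons respectively, and NC embryos had been injected. Over 7727 protein-coding genes with at least 5 CPM in both, the median ratio of NC to L2C input was 0.933, with 5% of genes below 0.129 and 5% above 6.42. Pan3 had a ratio of 27.7 (2262 against 81.5 CPM), Cnot6l of 13.9 (145 against 10.4) and Cnot6 of 12.2 (139 against 11.4), all above the upper limit, as was Zfp36l2 at 7.39 with few counts. The ratio was 2.77 for Btg4, 1.58 for Cnot2, 1.41 for Cnot7, 0.909 for Cnot1, 0.419 for Cnot8 and 0.397 for Cnot3. The order of genes by level thus differed between the experiments: per kb of exon, NC libraries placed Btg4 first (358 ± 14.0), then Pan3 (151 ± 9.04), Cnot8 (79.1 ± 1.11) and Cnot7 (67.5 ± 6.22). What produced these differences was not tested, and levels of Pan3, Cnot6 and Cnot6l relative to other genes depend on which experiment is read. The genes above the upper limit were all called higher in IP at L2C, and Cnot1, Cnot8 and Cnot3, lowest in this ratio, were called lower. Btg4 and Cnot2 were also called higher, and Cnot7 was not called. Whether counting over gene spans affected IP/input was not tested.

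**Figure D5:**
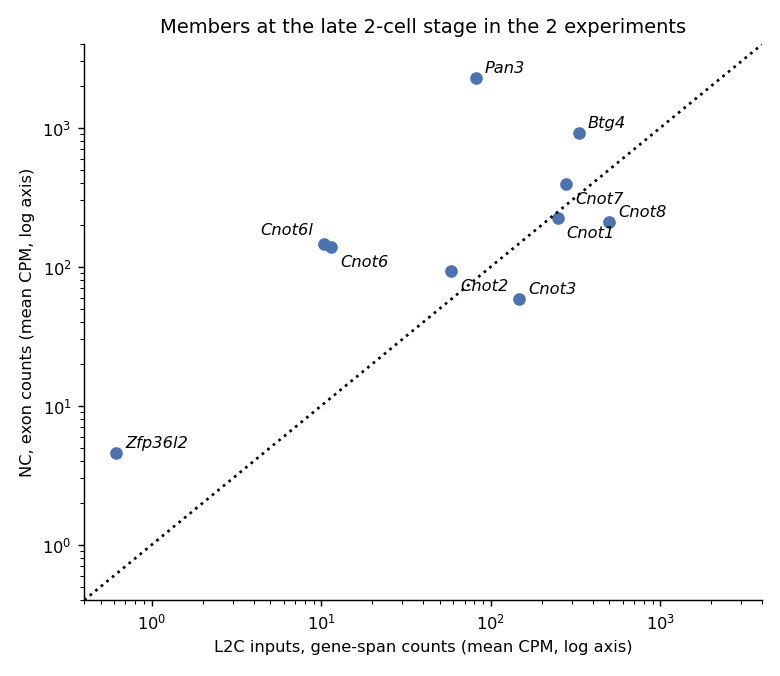
Mean level of each gene in 3 L2C inputs (gene-span counts) against 3 NC libraries (exon counts), in CPM on log axes, with a dotted line at equality. Pan3, Cnot6l, Cnot6 and Zfp36l2 lie farthest above the line, and Cnot3 and Cnot8 lie below it.

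Other genes of the pathway were counted in 5 lists of 35 genes, all of which passed the filter in SLIM-seq. Cnot9, listed at 0 in all 3 L2C inputs, is kept among the 35 in every count, those of IP at L2C included. From MII to L2C 16 rose and 15 fell, against 47.5% and 37.1% of all genes tested, and in the KD fit on the whole annotation 13 rose and 10 fell, against 30.5% and 36.4%. Among 5 other subunits and partners of CCR4-NOT, 4 were called lower at L2C than at MII and 1 higher, against 37.1% and 47.5% of all genes tested, and the 4 include Cnot9. Cnot11, which binds the N-terminal part of CNOT1 together with CNOT10, fell by 3.96 on the log2 scale (37.4 to 2.70 CPM), and Cnot10 rose by 5.28 (3.64 to 157 CPM). Cnot9 had 30.1 CPM at MII and was listed at 0 in all 3 L2C inputs, although NC libraries of the same stage had 60.7 CPM, so no fold is given.

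In the BTG/TOB family, whose members bind the CAF1-type nucleases, 4 of 5 genes rose from MII to L2C and 1 fell, against 47.5% and 37.1% of all genes tested. Tob1 rose by 4.28 on the log2 scale (3.31 to 70.7 CPM), while Tob2 fell by 2.38 (633 to 134 CPM). Against the same shares, 3 of 7 other deadenylases rose and 3 fell. Pan2, the catalytic partner of PAN3, fell by 2.05 (363 to 97.2 CPM) over the interval in which Pan3 rose by 2.01. Likewise 7 of 16 RNA-binding adaptors rose and 7 fell, among them Pabpn1l, a nuclear-type poly(A)-binding protein of oocytes that interacts with BTG4, which fell by 7.08 (756 to 6.24 CPM), and Ythdf2, a cytoplasmic m6A reader, which rose by 1.87 (88.3 to 358 CPM). Of the 2 uridylyltransferases, which mark short tails with uridine, Tut4 rose by 3.81 and Tut7 did not pass (0.07).

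In the knockdown the lists also moved both ways. Btg2, another member of the BTG/TOB family, fell by 1.85 on the log2 scale (54.5 CPM in NC to 14.4 in KD), and Samd4, a repressor that recruits CCR4-NOT, fell by 3.75 from a low level (3.54 to 0.245 CPM). Angel2, a nuclease related to the CCR4 type, fell by 1.02 (579 to 270.3 CPM). Tnrc6a, a scaffold of microRNA-mediated deadenylation, rose by 1.90 (5.16 to 17.6 CPM). In MII oocytes 8 of the 35 genes were higher in IP and 15 lower, in L1C embryos 7 and 12, and in L2C embryos 8 and 14, against 17.7% and 21%, 15.8% and 18.2%, and 22% and 22% of all genes tested. Tob2 and Pan2 were depleted at each stage, with log2 IP/input at MII of -2.21 and -2.33.

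The genes whose input pattern was most like that of Btg4 were Baiap2l1, Pdcd6ip, Lurap1l, Tbc1d30 and Camta1, with Pearson r of 0.9986 to 0.9993 over the 9 input libraries, which are 3 stages of 3. High values are common in such a design: among 8253 protein-coding genes with a mean of at least 10 CPM, 4.64% had an r above 0.99 and 27.8% above 0.9. Baiap2l1 went from 282 CPM at MII to 197 at L1C and 21.3 at L2C, and Pdcd6ip from 114 to 98.0 and 28.4. Of the 10 genes themselves, Cnot6l had r = 0.971, Cnot3 0.965 and Cnot7 0.934 with Btg4, as against 0.826 for Cnot2 and -0.671 for Cnot8, whereas Pan3 had -0.954 and Cnot1 -0.939, at the percentiles 19.9 and 22.2 of all these genes.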

How the data were processed

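The 18 SLIM-seq libraries were quantified by the authors with kallisto, and the deposited estimated counts, 1 target per gene, are not scaled. Targets are whole gene spans, introns included, and the deposited TPM are scaled by span length. Reads of the 6 KD and NC libraries passed through Trimmomatic and HISAT2 (GRCm38), and the authors deposited raw exon counts from featureCounts 2.0.1 with no strand option, so sense and antisense reads are not separated there. The labels name a stranded total RNA kit for all libraries and the methods of the study describe oligo-dT priming for RNA-seq, and poly(A) tails were not measured. The merged KD table holds 25739 of 55471 genes and 3 of the 10 genes described.

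Estimated counts were rounded to whole numbers and fitted with edgeR 4.0.16 in R 4.3.3 (TMM, filterByExpr, quasi-likelihood test, two-sided, Benjamini-Hochberg adjustment over all genes tested, threshold 0.05). The 9 inputs were fitted together, all 18 SLIM-seq libraries were fitted together for IP/input and its interaction with stage, and KD was compared with NC once in 6 libraries and once in 5. Intervals of a log2 change are 95% normal intervals. DESeq2 1.42.0, library totals, no filter, the replicate number as a block, each library left out, fewer libraries in the fit and the limits the study set on p and log2 change, applied here to the edgeR fit, were the alternatives. The fits of the inputs, of all SLIM-seq libraries and of the 6 KD and NC libraries were tested on simulated data. The merged tables matched the files of single samples to within 4.95 counts. Exons, spans and transcripts came from GENCODE M21 on GRCm38, and of the table's genes 55230 have an identifier there. Python 3.11.15 and matplotlib 3.10.9 were used for tables and figures.

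The genes and lists were chosen with earlier results of these data known. All 10 genes are named, and genes of the lists are named where they passed a test or were extreme in their list. Genes most like Btg4 are the 5 with the highest Pearson r of log2(TMM-scaled CPM + 1) over the inputs. Paralogs can share reads, and the overlapping gene with the most counts is given for Cnot1, Cnot2, Cnot3, Cnot7 and Zfp36l2. Limits of counting cover counting error only.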

Additional observations from a re-analysis of the deposited data

Results flagged for a closer look

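Enrichment in IP differed between stages in 9 tests of the interaction of stage and IP, each at an adjusted p under 0.05 by edgeR, with 3 IP and 3 input libraries per stage. Log2 IP/input of Cnot1 was lower at L1C than at MII by an amount of -0.71, lower at L2C than at L1C (-0.57) and lower at L2C than at MII (-1.28). That of Cnot3 was lower at L2C than at MII (-1.19), and that of Pan3 was lower at L2C than at L1C (-0.71). Cnot8 was higher at L2C than at L1C (0.63) and than at MII (0.92), Cnot2 was higher at L2C than at MII (1.05), and Cnot7 was higher at L2C than at MII (0.89). With 1 library left out, the calls from L1C to L2C held in 8 of 12 fits for Cnot1 and in 3 of 12 for Cnot8 and for Pan3, and that of Cnot7 from MII to L2C in 7 of 12. The calls of Cnot1 and Cnot8 from L1C to L2C were also lost with the replicate number as a block (adjusted p = 0.0549 and 0.0961) and without the filter on low counts (adjusted p = 0.059 and 0.0589).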

How the results depend on the processing

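Of 279 counts of genes called under an alternative setting, 242 were within 1.5 times the reported count. At MII, genes higher in IP numbered 5 instead of 3 under DESeq2, library totals or the 6 MII libraries alone, and genes lower in IP 1 instead of 3 under library totals. For differences of IP/input between stages, from MII to L1C DESeq2 called 2 genes higher instead of 0, with 0 to 1 higher and 1 to 2 lower when a library was left out. From L1C to L2C, 1 gene higher became 0 without the filter, with the replicate block and in the libraries compared alone, and 2 lower became 1 with the block, and leaving out a library gave 0 to 1 higher and 0 to 2 lower. In the KD fit on 5 libraries 2 higher became 1 under library totals and 0 to 2 with a library left out, and with the limits of the study for p and log2 change applied to the edgeR fit the 2 higher and 5 lower, and the 3 lower of 6 libraries, became 0. Only 2, 3 and 3 genes at MII, L1C and L2C kept their rank in deposited TPM.

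Single genes that had not passed the test changed sign: Cnot6 from MII to L1C (0.015 under library totals, and -0.42 to 0.13 with a library left out, above 0 without MII input replicate 2 or L1C input replicate 2 or 3), Zfp36l2 from MII to L2C (-0.0088 without the filter, and -0.43 to 0.42 with a library left out, below 0 without replicate 1 of either input), in IP at MII (-0.39 to 0.44, below 0 without replicate 1 of input or IP), in IP at L1C (reported as 0.67, -0.078 to 0.97) and its change from MII (reported as 0.60, -0.14 to 1.05), both below 0 without L1C IP replicate 3, and in KD (0.070 with the replicate block, and -0.45 to 0.14, above 0 without KD replicate 2 or NC replicate 3). Others were Cnot2 in IP at L1C (0.23 under library totals, and -0.18 to 0.079, above 0 without L1C input replicate 1), Cnot6l from L1C to L2C in IP (-0.008 in the libraries compared, and -0.044 to 0.325, below 0 without L2C input replicate 2), Pan3 from MII to L2C in IP (-0.26 to 0.0034, above 0 without L2C IP replicate 2) and Cnot8 in KD (-0.031 under library totals). The cause was not tested.

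Deviations of same-numbered libraries correlated at -0.08 to 0.16 over inputs, -0.15 to 0.09 over all SLIM-seq libraries and -0.04 to 0.04 in the KD experiment. Some differently numbered libraries lay beyond these ranges, with 0.29 for L1C input replicate 2 and L1C IP replicate 3. L1C input replicate 1 and L1C IP replicate 3 had -0.25. With 3 libraries per group, these values cannot tell paired from unpaired libraries. With the replicate block, IP/input of Btg4 at MII stayed at 0.28 but missed the threshold (adjusted p = 0.102), as did the differences of Cnot1 (-0.57, adjusted p = 0.0549) and Cnot8 (0.63, adjusted p = 0.0961) from L1C to L2C. Zfp36l2 had only 4.12 to 52.7 counts per input, so its values carry a large counting error.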
